A study of Homo sapiens with 120 samples.

Results

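Of the 2652 mature miRNA names measured in these libraries, 6 are described here, from 3 of the hairpins that lie within genes induced by interferon. They are miR-10399-3p and miR-10399-5p within ZC3HAV1, miR-3614-5p and miR-3614-3p within TRIM25, and miR-6891-5p and miR-6891-3p within HLA-B. They were chosen by name, after long double-stranded RNA (dsRNA) had been seen to raise some of them over mock transfection in these same libraries, so levels with dsRNA against mock are given below as a description, without a test. Tests were kept to contrasts among dsRNA-transfected libraries; mock libraries enter a fit in 1 alternative only, given with the limits.

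Small RNA was sequenced from HEK293T, a human embryonic kidney cell line. All lines carry a knock-out of PKR, the kinase that binds dsRNA and shuts down translation, on a parental line labelled pOSI17, so cells with intact PKR were not compared. Experiment 1 used this Parental line and lines derived from it with a further knock-out of PACT (PACTko), of TRBP (TRBPko) or of both (PACTko_TRBPko). Experiment 2 used the Parental line and lines labelled as further knock-outs of Ago2 (Ago2ko), of Ago1 and Ago2 (Ago1ko_Ago2ko) and of Dicer (Dicerko). Cells were mock-transfected or received 1 of 2 long dsRNAs labelled dsGFPc and dsGFPd. Total RNA and RNA pulled down with Ago proteins by an Ago-binding peptide were sequenced from 2 libraries per group, which gave 96 libraries over both experiments. The labels do not say whether replicate libraries came from separate cultures or whether a knock-out line is 1 clone, so p-values measure only the spread between these libraries.

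Cells detect long dsRNA as a sign of viral infection and answer with type I interferon, which switches on a large set of antiviral genes. ZC3HAV1 encodes ZAP, which binds CpG-rich viral RNA and promotes its decay; TRIM25 encodes a ubiquitin ligase that acts with ZAP and in RIG-I signalling; HLA-B encodes a class I antigen-presenting molecule. A miRNA inside such a gene can be cut from its transcript: most hairpins are released by Drosha, others (mirtrons) by splicing of a short intron, and Dicer then cuts off the loop to leave a duplex of a 5p and a 3p arm. One arm is kept by an Ago protein, which pairs to target RNAs through the seed, bases 2 to 8 of the miRNA. PACT and TRBP are proteins that bind dsRNA and join Dicer in its complex.

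The mature sequences are shown because the seed sets which RNAs a miRNA can pair with, and because the arms of 1 hairpin differ in how much was recovered. Sequences are from RefSeq (GRCh38.p14), written 5′ to 3′, with the seed in capitals. All 6 members were matched.
miR-10399-3p: cUCUCGGAcaagcuguagguc
miR-10399-5p: aAUUACAGauugucucagaga
miR-3614-5p: cCACUUGGaucugaaggcugccc
miR-3614-3p: uAGCCUUCagaucuugguguuuu
miR-6891-5p: uAAGGAGGgggaugagggg
miR-6891-3p: cCCUCAUCuuccccuccuuuc
No seed was shared between members. The seeds of miR-10399-3p, miR-3614-5p and miR-3614-3p occur in 0 other mature sequences of the table. The seed of miR-6891-5p also occurs in miR-12118 and miR-3173-3p, that of miR-10399-5p in miR-6504-3p, and that of miR-6891-3p in miR-6072. Among these, miR-3173-3p had reads in the pulldown of dsRNA-transfected cells of experiment 1 (1456 reads over 16 libraries), and the others had 0.

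All 3 hairpins are on the minus strand, as their host genes are. MIR10399 (chr7:139044100-139044157, 58 bases) ends 585 bases from the 3′ end of ZC3HAV1 (chr7:139043515-139109720). MIR3614 (chr17:56891270-56891355, 86 bases) lies 3361 bases from the 3′ end of TRIM25 (chr17:56887909-56914049). MIR6891 (chr6:31355224-31355316, 93 bases) lies 1349 bases from the 3′ end of HLA-B (chr6:31353875-31357179). Whether a hairpin is exonic or intronic was not analysed here, since exon coordinates were not used. The MIR6891 hairpin is printed because its ends set it apart from the other hairpins: it begins with GU and ends with AG, the letters at the ends of most introns, and its 5p arm (capitals, positions 2 to 20) and 3p arm (capitals, positions 69 to 89) lie next to those ends.
MIR6891: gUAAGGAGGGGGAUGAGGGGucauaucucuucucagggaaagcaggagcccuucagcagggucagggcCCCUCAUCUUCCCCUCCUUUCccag
Of 1560 hairpins in the table, 36 (2.308%) begin with GU and end with AG, and MIR10399 and MIR3614 do not.

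The host promoters were searched on both strands, from 250 bases before to 50 after the RefSeq start, for GAANNGAAA and AAANNGAAA, which are the cores of the element bound by interferon regulatory factors in spellings that differ in their first letter. The first was chosen after these promoters had been read. All 3 host promoters hold GAANNGAAA once, on the strand opposite to the gene, where it reads TTTCNNTTC, and 2691 of 35116 promoters (7.66%) hold it. None of the 3 holds AAANNGAAA, which is in 3681 promoters (10.5%). PSME2 and B2M, named below as interferon-induced hosts of other miRNA genes, go the other way. Their promoters hold GAANNGAAA 0 times, and AAANNGAAA 1 time in PSME2 and 2 times in B2M. UBA7, also named below as such a host, had no promoter among those searched. The matched letters are in capitals, with the gene's strand shown, and positions counted from 0 at the first transcribed base.
ZC3HAV1, chr7:139109691-139109742, minus strand, match from 8: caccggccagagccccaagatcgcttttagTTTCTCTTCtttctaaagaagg
TRIM25, chr17:56914020-56914082, minus strand, match from -3: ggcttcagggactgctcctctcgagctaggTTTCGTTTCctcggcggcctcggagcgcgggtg
HLA-B, chr6:31357295-31357364, minus strand, match from -155: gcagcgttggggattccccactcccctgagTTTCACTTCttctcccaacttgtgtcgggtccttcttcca
A match is a description of these letters. Binding and the host mRNAs were not measured.

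Depth set how low a level could be seen. Libraries of experiment 1 held 2457547 to 13457933 miRNA reads in the pulldown and 406531 to 1104630 in total RNA. Without Dicerko, those of experiment 2 held 1856249 to 7167395 in the pulldown and 910155 to 4340650 in total RNA. Dicerko libraries held 47006 to 593510 and 39916 to 180343, and because the deposited scaling raises shallow libraries, 1 read counted as 4.86 to 24.5 normalised counts in the Dicerko pulldown against 0.0884 to 0.601 in the pulldown of the other lines. Levels below are the deposited normalised counts.

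In experiment 1 miR-10399-3p, the more abundant arm of its hairpin, was the highest of the members. In the pulldown of Parental cells it stood at 7.25 and 3.52 with mock, at 367 and 436 with dsGFPc, and at 433 and 545 with dsGFPd. Over the 4 lines the 8 mock libraries ran from 0.713 to 7.25 (median 2.63) and the 16 dsRNA libraries from 262 to 875 (median 494), so that no dsRNA library came near a mock library. In total RNA the mock libraries ran from 0 to 3.18 and rested on 4 reads in all, and the dsRNA libraries ran from 72.7 to 425.

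miR-10399-5p, from the other side of the same hairpin, was lower throughout. In the Parental pulldown it had 0 reads in both mock libraries, 16.5 and 20.5 normalised counts with dsGFPc, and 34.7 and 52.2 with dsGFPd. Over the 4 lines the mock libraries ran from 0 to 0.960 and the dsRNA libraries from 9.25 to 95.6 (median 28.7). The lowest dsRNA library was PACTko with dsGFPc and the highest PACTko with dsGFPd, so the spread within that line spanned the whole range.

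miR-3614-5p was nearly absent without dsRNA. In the Parental pulldown it stood at 0.196 and 0.306 with mock, at 56.7 and 45.2 with dsGFPc, and at 74.5 and 76.3 with dsGFPd. Mock libraries over the 4 lines ran from 0 to 0.711 (13 reads in all), and dsRNA libraries from 27.1 to 83.2 (median 56.9). In total RNA a single read was found over the 8 mock libraries, against 583 reads and a level of 12.8 to 96.6 over the 16 dsRNA libraries.

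miR-6891-5p, from the hairpin within HLA-B, was detected in 6 of the 8 mock libraries of the pulldown. In the Parental pulldown it stood at 2.16 and 0 with mock, at 30.9 and 33.3 with dsGFPc, and at 35.2 and 51.8 with dsGFPd. Mock libraries over the 4 lines ran from 0 to 2.16 and dsRNA libraries from 13.4 to 95.4 (median 32.1). In total RNA it had 0 reads in the 8 mock libraries and 79 reads over the 16 dsRNA libraries, with 0 in 1 of them (PACTko, dsGFPc), and it did not pass the filter of 10 reads in at least 4 libraries there.

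The remaining arms were scarcely recovered. miR-3614-3p had 20 reads in the dsRNA pulldown of experiment 1 (9 in a TRBPko and 11 in a PACTko_TRBPko library), 6 in that of experiment 2, and 0 in mock cells and in total RNA. miR-6891-3p had 34 reads in the dsRNA pulldown of experiment 1, 11 in a single mock library, and 0 elsewhere. So 4 of the 6 members passed the low-count filter in at least 1 set of libraries. The 5p arm made up at least 97.0% of miR-3614 reads and at least 96% of miR-6891 reads in every dsRNA library with 10 or more reads of the hairpin. For miR-10399 the 3p arm dominated: the 5p arm held 1.05% to 13.7% of its reads in the pulldown (median 6.22%) and 2.02% to 20.3% in total RNA (median 10.3%).

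**Figure D1:**
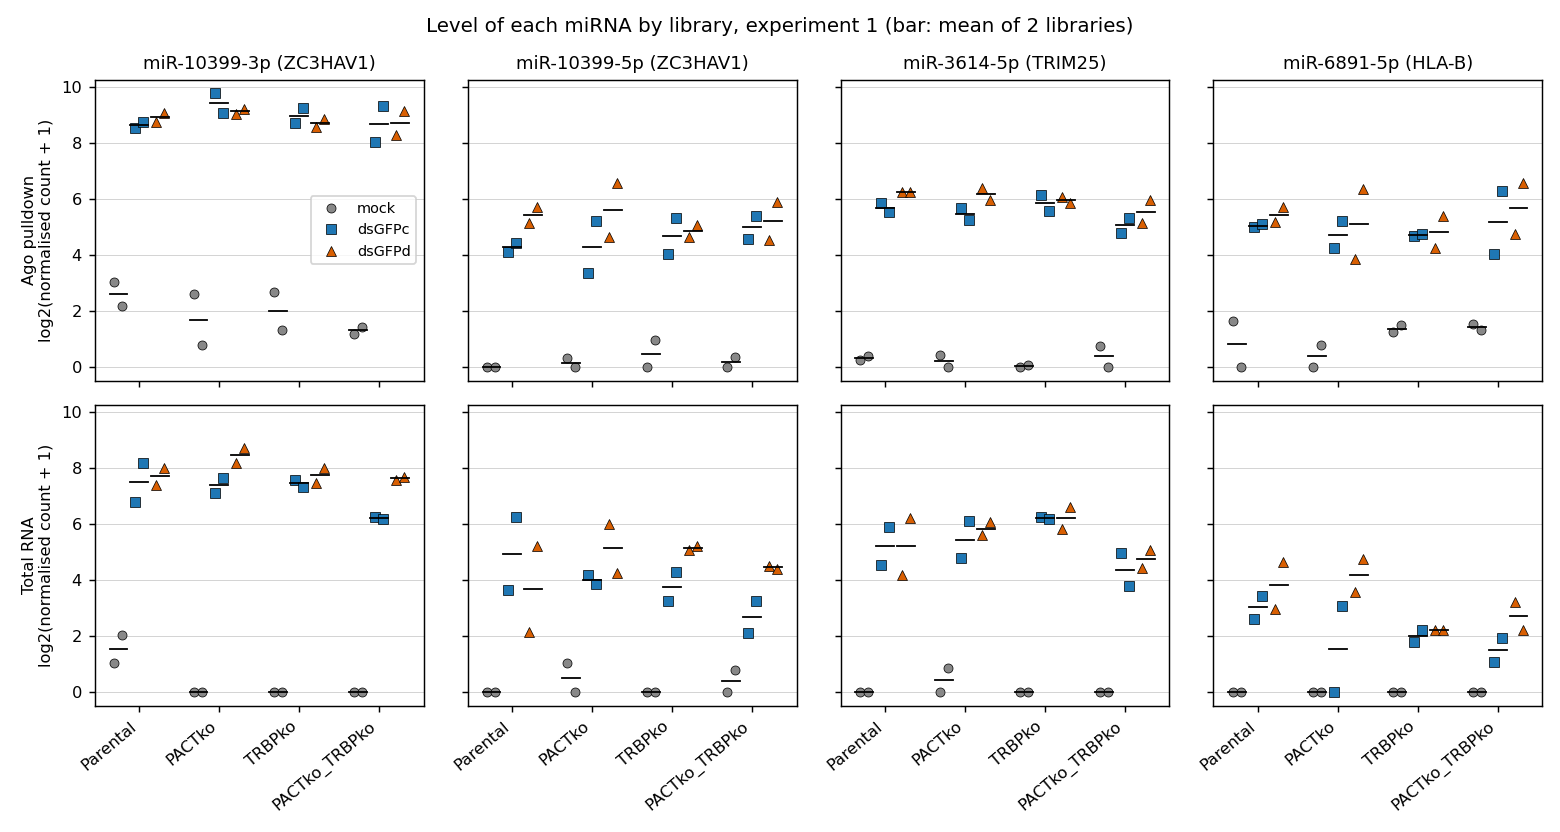
Levels of 4 members in experiment 1, as log2(normalised count + 1), in Ago pulldown (upper row) and total RNA (lower row), by cell line. Points are libraries (circles mock, squares dsGFPc, triangles dsGFPd) and bars the mean of 2 libraries; apart from 1 PACTko library of miR-6891-5p in total RNA, every dsRNA point is above both mock points of its line.

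The members' rule rests on this contrast, so the following counts are read as nothing more than its description. In the pulldown of experiment 1, 4 members had each dsRNA library above both mock libraries in each of the 4 lines; 13 of 985 miRNAs tested did so (1.32%). In total RNA of experiment 1 it was 3 members (both miR-10399 arms and miR-3614-5p), and 16 of 457 miRNAs (3.5%). In experiment 2 it was miR-10399-3p alone in the pulldown (1 of 887 miRNAs, 0.113%), and miR-10399-3p and miR-6891-5p in total RNA (4 of 752, 0.532%).

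Experiment 2 was less even, most of all in its Parental line. With dsRNA, miR-10399-3p in the Parental pulldown stood at 245 and 16.2 (dsGFPc) and at 186 and 59.4 (dsGFPd), in the order of replicates 1 and 2, and at 2.21 and 0 with mock. In Parental total RNA the order was opposite: 40.5 and 212 with dsGFPc, 50.2 and 128 with dsGFPd, 1.60 and 0.909 with mock. The Ago2ko and Ago1ko_Ago2ko lines were tighter, at 107 to 187 and 104 to 177 in the pulldown with dsRNA. miR-3614-5p followed the same pattern in Parental total RNA, with 0 and 2.17 in replicate 1 of the dsRNA libraries and 22.8 and 50.8 in replicate 2, so its dsRNA range overlapped the mock values of 1.20 and 0.227. miR-6891-5p overlapped in the Parental pulldown, at 3.94 and 9.0 with mock and at 0.417 to 9.77 with dsRNA. miR-10399-5p overlapped in Ago1ko_Ago2ko, where 1 dsGFPc library of each fraction had 0 reads, and in Parental total RNA.

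**Figure D2:**
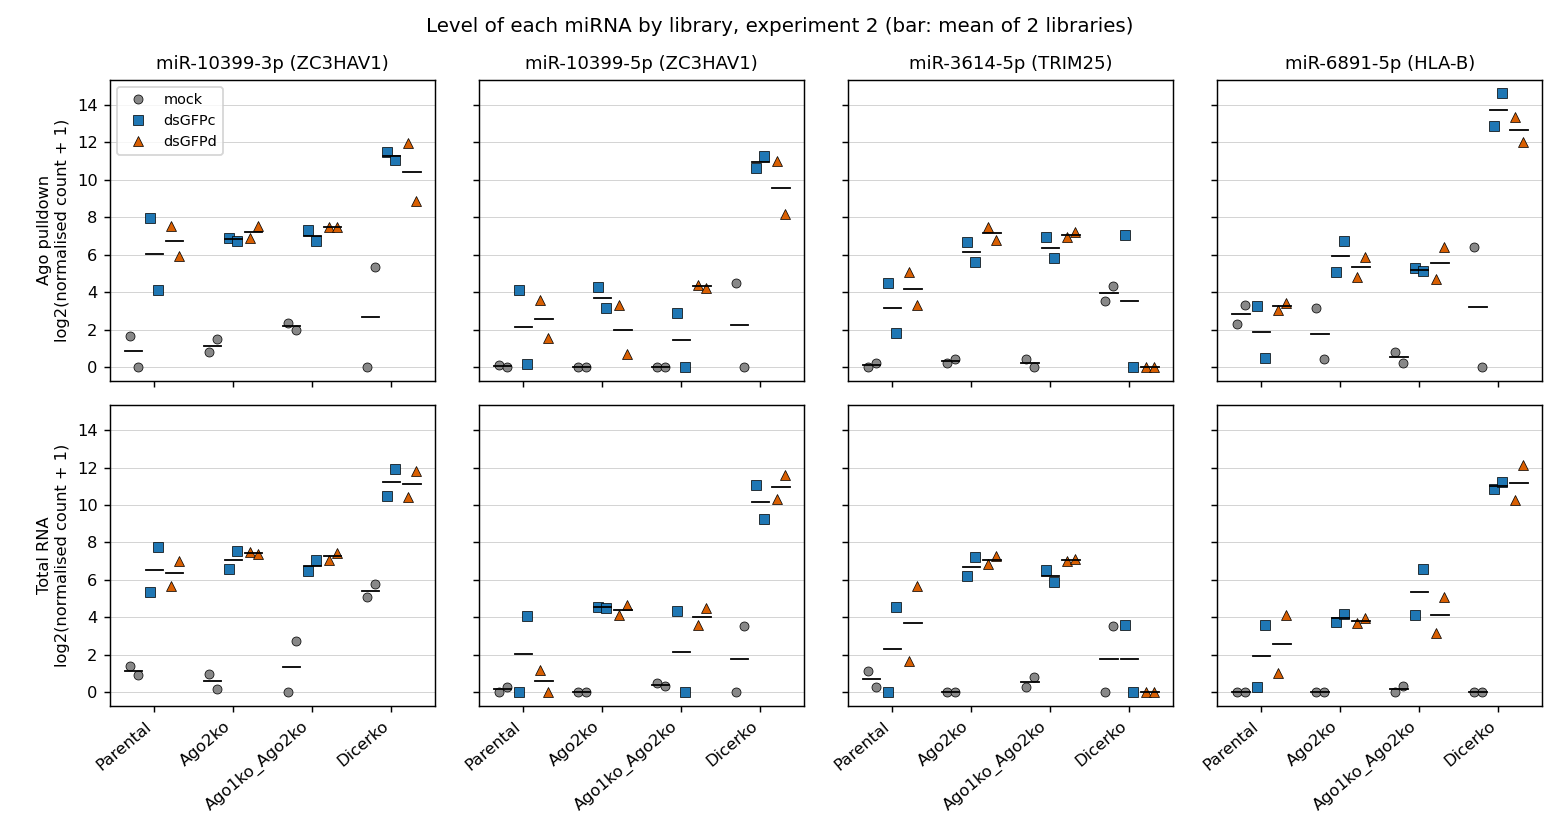
Levels of the same members in experiment 2, as log2(normalised count + 1), in Ago pulldown (upper row) and total RNA (lower row), by cell line. Points are libraries (circles mock, squares dsGFPc, triangles dsGFPd) and bars the mean of 2 libraries; in Dicerko miR-10399-3p, miR-10399-5p and miR-6891-5p lie highest, and miR-3614-5p is at 0 in 6 of its 8 dsRNA libraries.

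dsGFPc and dsGFPd, the pair of long dsRNAs, were compared within the dsRNA libraries of each experiment and fraction, with cell line in the model. With limma and Benjamini-Hochberg adjustment over all miRNAs tested, 0 members were called in any of the 4 fits. The background of calls was 0% in the pulldown of experiment 1 (29 of 864 miRNAs at an unadjusted p under 0.05, 0 by edgeR), 1.01% in total RNA of experiment 1, 0% in the pulldown of experiment 2 (16 of 761 unadjusted, 0 by edgeR) and 0% in total RNA of experiment 2 (46 of 638 unadjusted, 3 by edgeR). The nearest to a call was miR-10399-3p in total RNA of experiment 1, at 247 ± 84.6 with dsGFPd and 155 ± 73.6 with dsGFPc (SD, n = 8 each; limma log2 difference 0.75, 95% interval 0.31 to 1.18, adjusted p = 0.109). That difference passed limma's threshold without the Parental dsGFPc library of replicate 2 (0.92, adjusted p = 0.00129) or the Parental dsGFPd library of replicate 1 (0.85, adjusted p = 0.0427). In the pulldown the same miRNA differed by -0.06 (95% interval -0.43 to 0.32). For miR-3614-5p in the pulldown of experiment 1 the level was 64.4 ± 15.01 with dsGFPd and 46.5 ± 13.1 with dsGFPc (SD, n = 8 each; limma log2 difference 0.47, interval 0.08 to 0.87, adjusted p = 0.992).

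PACT and TRBP bind Dicer, and the comparison of lines in experiment 1 asked whether the level of the members with dsRNA depended on them. Each knock-out was compared with Parental over its 4 dsRNA libraries. By limma 0 members were called in any of these 6 comparisons. The background was 0% for PACTko in the pulldown (35 of 864 unadjusted, 0 by edgeR), 0% for PACTko in total RNA (45 of 397 unadjusted, 1 by edgeR), 2.78% and 15.4% for TRBPko in pulldown and total RNA, and 0.579% and 9.57% for PACTko_TRBPko.

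The intervals bound what these libraries could have shown. miR-10399-3p in the pulldown was 635 ± 164 in PACTko, 466 ± 97.0 in TRBPko, 447 ± 187 in PACTko_TRBPko and 445 ± 73.7 in Parental (SD, n = 4 each). Its log2 difference from Parental was 0.49 (interval -0.04 to 1.02) in PACTko, 0.06 (-0.47 to 0.59) in TRBPko and -0.08 (-0.61 to 0.45) in PACTko_TRBPko. In total RNA it was 136 ± 72.3 in PACTko_TRBPko against 208 ± 83.8 in Parental (SD, n = 4 each; limma log2 difference -0.68, interval -1.30 to -0.06, adjusted p = 0.187). miR-3614-5p in the pulldown was 40.3 ± 14.7 in PACTko_TRBPko against 63.2 ± 14.9 in Parental (SD, n = 4 each; limma log2 difference -0.67, interval -1.23 to -0.11, adjusted p = 0.385). In total RNA miR-3614-5p was 75.0 ± 16.9 in TRBPko against 43.2 ± 27.96 in Parental (SD, n = 4 each; limma log2 difference 1.00, interval 0.13 to 1.88, adjusted p = 0.122), and it was called without the Parental dsGFPd library of replicate 2 (1.34, adjusted p = 0.0364). miR-6891-5p in the pulldown spread widely, from 15.6 to 95.4 in PACTko_TRBPko, and its interval against Parental ran from -0.92 to 1.26.

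**Figure D3:**
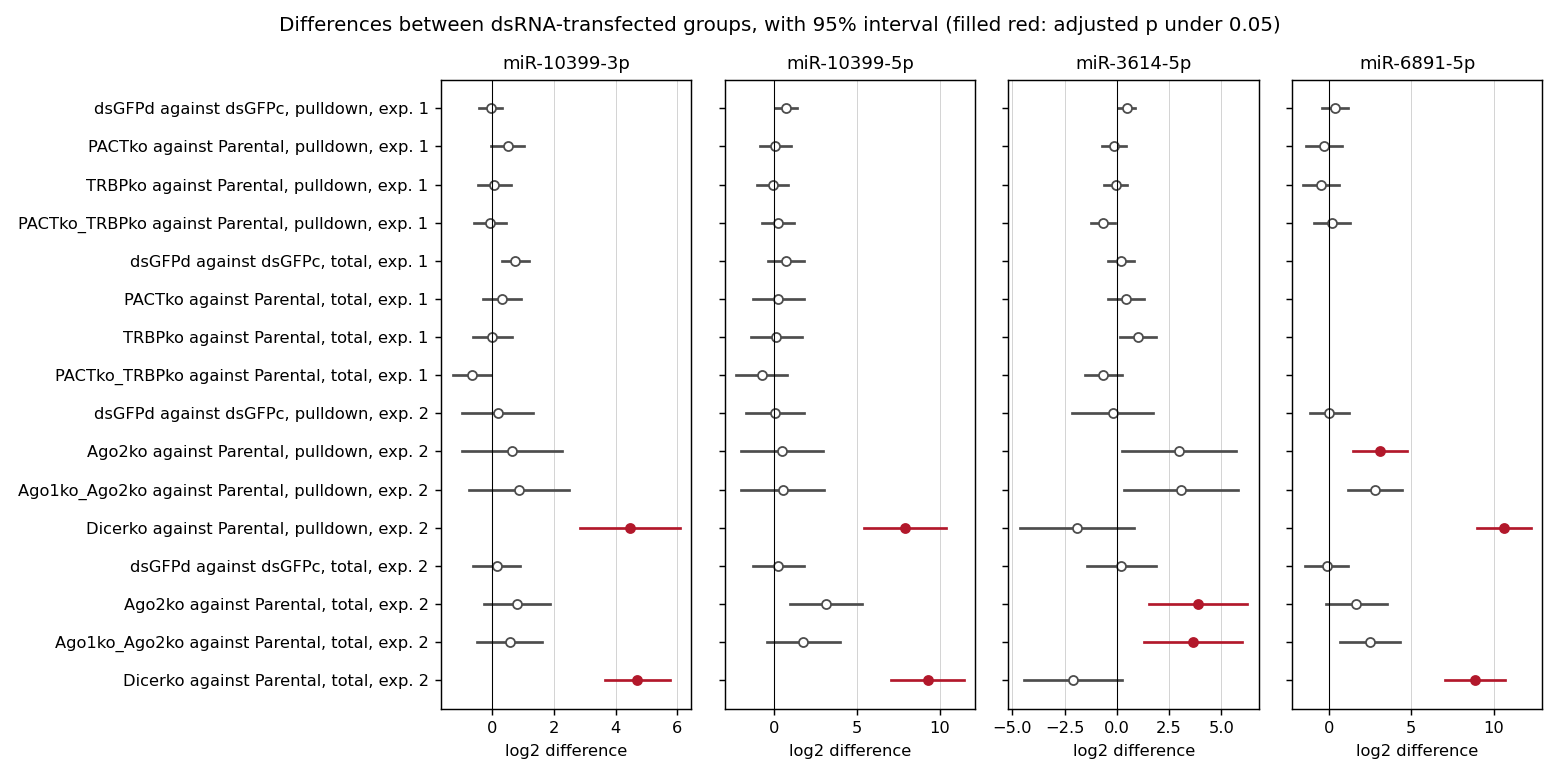
Log2 differences between dsRNA-transfected groups for 4 members, from limma, with 95% intervals; each line of the vertical axis is 1 comparison of dsRNAs or of a knock-out with Parental, and filled red points have an adjusted p under 0.05. The red points are 3 members in Dicerko in each fraction, miR-6891-5p in the Ago2ko pulldown, and miR-3614-5p in total RNA of both Ago knock-out lines. The last passed the low-count filter only because of those lines and is not read as a test.

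Recovery with Ago was compared with total RNA over the dsRNA libraries. In experiment 1, 2 of the 3 members that passed the filter in each fraction (both miR-10399 arms) were higher in the pulldown by limma. Of 881 miRNAs tested, 65.7% differed (392 higher, 187 lower), and the median over all was 0.42 on the log2 scale. miR-10399-3p stood at 498 ± 148 in the pulldown and 201 ± 90.1 in total RNA (SD, n = 16 each; log2 difference 1.39, interval 1.08 to 1.70, adjusted p = 2.4e-10). miR-10399-5p differed by 0.69 (adjusted p = 0.0467), a call that held in 14 of 32 fits that left out 1 library and in 1 of 7 other alternatives, and miR-3614-5p by 0.34 (interval -0.04 to 0.72, adjusted p = 0.107). miR-6891-5p stood at 39.1 ± 25.03 in the pulldown and 7.52 ± 7.57 in total RNA (SD, n = 16 each). It passed the filter through the pulldown alone, so this difference is given without a test (2.46 on the log2 scale, and 1.43 to 2.87 over the alternatives other than leaving out a library). In experiment 2 without Dicerko, 0 members were called where 35% of miRNAs were; miR-6891-5p differed by 0.90 (interval -0.09 to 1.88, adjusted p = 0.157) and miR-10399-3p by -0.02 (interval -0.70 to 0.66). The ratio of the 5p to the 3p arm of miR-10399 was 0.69 lower on the log2 scale in the pulldown of experiment 1 (-0.69, interval -1.32 to -0.07, adjusted p = 0.0576 by limma; 51.2% of hairpins called) and differed by -0.25 in experiment 2 (27.8% of hairpins called).

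In the lines labelled as Ago knock-outs, miR-3614-5p in total RNA of both lines and miR-6891-5p in the Ago2ko pulldown were called above Parental with dsRNA. miR-3614-5p in total RNA was 122 ± 37.4 in Ago2ko and 104 ± 37.0 in Ago1ko_Ago2ko, against 18.9 ± 23.6 in Parental (SD, n = 4 each). By limma the log2 differences were 3.90 (interval 1.56 to 6.24, adjusted p = 0.0465) and 3.65 (1.31 to 5.99, adjusted p = 0.0264), where 5.8% and 20.5% of miRNAs were called. The Parental libraries had 0 and 15 reads in replicate 1 and 81 and 157 in replicate 2. Dicerko libraries with dsRNA had 1 read in all. So the filter of 10 reads in at least 4 libraries was met only because of the Ago knock-out lines, where the miRNA was high. Its p-values and calls in total RNA of these lines are therefore given as a description and not read as a test. Without the Parental dsGFPc library of replicate 1 the differences were 2.85 (adjusted p = 0.203) and 2.60 (adjusted p = 0.105). Without the Parental dsGFPd library of replicate 1 they were 3.38 and 3.13, with neither called. The Ago2ko call held in 5 of the 16 fits that left out 1 library and was lost without any 1 library of Ago2ko or of Ago1ko_Ago2ko, or without the Dicerko dsGFPc library of replicate 2. The Ago1ko_Ago2ko call held in 11 of 16 and was also lost without its own libraries other than dsGFPc replicate 2. With edgeR neither was called (adjusted p = 0.0597 and 0.0610).

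In the pulldown the same miRNA was 109 ± 54.8 in Ago2ko, 111 ± 39.2 in Ago1ko_Ago2ko and 16.4 ± 13.3 in Parental (SD, n = 4 each). The log2 differences of 2.97 and 3.05 were not called by limma (adjusted p = 0.149 and 0.428). miR-6891-5p in the pulldown was 56.2 ± 36.04 in Ago2ko, 45.2 ± 26.6 in Ago1ko_Ago2ko and 6.54 ± 4.21 in Parental (SD, n = 4 each). It was called in Ago2ko (limma log2 difference 3.07, interval 1.43 to 4.71, adjusted p = 0.0140; 12.9% of miRNAs called) and not in Ago1ko_Ago2ko (2.81, interval 1.17 to 4.45, adjusted p = 0.0883; 1.05% called). The Ago2ko call was lost without the Parental dsGFPc library of replicate 2 (2.33, adjusted p = 0.0586) or the Ago2ko dsGFPc library of replicate 2 (2.66, adjusted p = 0.0527). In total RNA miR-6891-5p was 14.1 ± 2.42 in Ago2ko, 37.8 ± 38.7 in Ago1ko_Ago2ko and 7.09 ± 7.79 in Parental (SD, n = 4 each; limma log2 differences 1.66, adjusted p = 0.473, and 2.50, interval 0.67 to 4.33, adjusted p = 0.0501), and the second was called without the Dicerko libraries (adjusted p = 0.0267).

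For miR-10399-3p the intervals of the Ago2ko and Ago1ko_Ago2ko differences all held 0. miR-10399-5p in total RNA was 21.1 ± 3.33 in Ago2ko, 12.9 ± 9.75 in Ago1ko_Ago2ko and 4.34 ± 7.83 in Parental (SD, n = 4 each). The Ago2ko difference of 3.13 (interval 0.95 to 5.31) was not called by limma over the 4 lines (adjusted p = 0.103). It was called without the Dicerko libraries (adjusted p = 0.0435), and the Ago1ko_Ago2ko difference was 1.78 (interval -0.40 to 3.96).

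A ratio of reads within 1 library does not depend on the scaling between libraries, so the members were also set against miR-10399-3p of the same library; this ratio was chosen after the values were seen and is given without a test. In the pulldown with dsRNA, miR-3614-5p had 8.80 to 17.4 reads per 100 reads of miR-10399-3p in Parental cells of experiment 2, 44.4 to 154 in Ago2ko and 52.7 to 83.2 in Ago1ko_Ago2ko. In total RNA it had 0 to 39.6 in Parental, 64.4 to 94.1 in Ago2ko and 43.97 to 103 in Ago1ko_Ago2ko. How many other miRNAs would separate these lines on the same ratio was not counted. The reads of miR-10399-3p itself were uneven in these Parental libraries, from 117 to 2774 in the pulldown and from 190 to 754 in total RNA. For miR-3614-5p the ratio in the 16 pulldown libraries of experiment 1 ran from 5.76 to 17.5.

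Dicerko cells gave the widest differences among the members. With dsRNA, miR-6891-5p in the pulldown stood at 7502 and 25127 (dsGFPc) and at 10310 and 4117 (dsGFPd), from 300 to 1934 reads a library, and with mock at 85.7 (8 reads) and 0. In total RNA it stood at 1855, 2371, 1217 and 4460 with dsRNA and had 0 reads in both mock libraries. miR-10399-3p ran from 467 to 4046 in the pulldown with dsRNA and from 1375 to 3903 in total RNA, against at most 53.3 with mock. miR-10399-5p ran from 288 to 2449 and from 617 to 3159, against at most 21.4 with mock. Every dsRNA library of these 3 members lay above both mock libraries of Dicerko. The share of all miRNAs that did so in this line was not counted. The summed normalised counts of all miRNAs were also higher with dsRNA in Dicerko. In the pulldown they were 892352 and 915841 with mock and 2222519 to 5703135 with dsRNA. In total RNA they were 1298974 and 728245 with mock and 1713377 to 3473989 with dsRNA. So this non-overlap is given as a description only.

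miR-3614-5p did not share this pattern. Its dsRNA libraries of Dicerko had 0 reads in 6 of 8, 1 read in a total RNA library, and 27 reads (131 normalised counts) in the dsGFPc pulldown library of replicate 1. Since 1 read counted as at least 10.6 normalised counts in Dicerko total RNA, a level as low as the Parental mean of 18.9 could not be told from 0 in a single such library. Relative to miR-10399-3p in the same libraries, it had 27 reads against 1471 in the pulldown (1.84 per 100) and 1 against 774 in total RNA (0.129 per 100). Parental cells of experiment 2 had 628 against 5036 in the pulldown (12.5 per 100) and 253 against 1687 in total RNA (14.997 per 100).

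Against Parental, 3 members were called higher in Dicerko in each fraction by limma, where 39.6% of miRNAs were called in the pulldown (75 higher, 226 lower) and 46.4% in total RNA (136 higher, 160 lower). In the pulldown the log2 difference was 4.47 for miR-10399-3p (interval 2.84 to 6.09), 7.91 for miR-10399-5p (5.43 to 10.4) and 10.6 for miR-6891-5p (9.0 to 12.3), with a largest adjusted p of 0.000266. In total RNA it was 4.71 (3.65 to 5.77), 9.25 (7.07 to 11.4) and 8.87 (7.04 to 10.7), with a largest adjusted p of 9.5e-07. For miR-10399-3p in total RNA a gap between these lines also stood in mock cells. Its mock reads were 1 and 5 in Dicerko, where 1 read counted as 32.5 and 10.7. In Parental they were 8 and 4, where 1 read counted as 0.200 and 0.227. So its difference in total RNA is not read as one of dsRNA-transfected cells alone. In the pulldown its mock reads were 0 and 2 in Dicerko, where 1 read counted as 10.7 and 19.5, and 23 and 0 in Parental. There miR-10399-5p had 2 and 0 mock reads in Dicerko and 1 and 0 in Parental. These reads are too few to show whether a gap stood in mock cells, so both pulldown differences carry the same limit. miR-3614-5p was called in neither fraction, at -1.91 (interval -4.64 to 0.82) and -2.09 (-4.43 to 0.25). Without the pulldown library of 27 reads it was called lower there (-3.80, adjusted p = 0.00274), the only call in 16 fits that left out 1 library. Over 9 other alternatives the pulldown difference ran from -5.76 to 0.83, with 1 called. With that library, the mean level in the pulldown was 32.8 ± 65.6 in Dicerko and 16.4 ± 13.3 in Parental (SD, n = 4 each).

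The size of these differences depends on how the shallow Dicerko libraries are scaled. With columns scaled to the same sum, miR-10399-3p differed by 2.28 in the pulldown and 2.77 in total RNA, miR-10399-5p by 5.91 and 7.54, and miR-6891-5p by 8.60 and 7.04, each still called by limma. On that scaling miR-3614-5p was called lower in both fractions (-2.86, adjusted p = 0.0410, and -2.69, adjusted p = 0.0341). In RPM, reads scaled by each group's miRNA reads over its 4 dsRNA libraries, miR-6891-5p stood at 3145 in the Dicerko pulldown and at 9.90 in the Parental pulldown. Dicerko libraries hold few reads of other miRNAs, which raises each member's share of the total, and the part this plays in the differences was not tested.

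Within a library the order of the members changed as well. In the pulldown with dsRNA, miR-6891-5p had 255 to 1193 reads per 100 reads of miR-10399-3p in Dicerko and 2.56 to 100 in the other lines of experiment 2. In total RNA the ranges were 60.8 to 130 in Dicerko and 0.526 to 71.8 in the others, which overlap. The 5p arm of miR-10399 held 33.7% to 53.8% of the hairpin's reads in the Dicerko pulldown against 0% to 13.4% in the other lines, and 13.6% to 59.9% against 0% to 19.1% in total RNA. So both arms of miR-10399 were recovered in more equal amounts in Dicerko, with 1 of the 4 total RNA libraries inside the range of the other lines. These ratios and shares were compared as a description, with no test. They were not counted over all miRNAs or hairpins, so neither is taken as particular to these members.

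**Figure D4:**
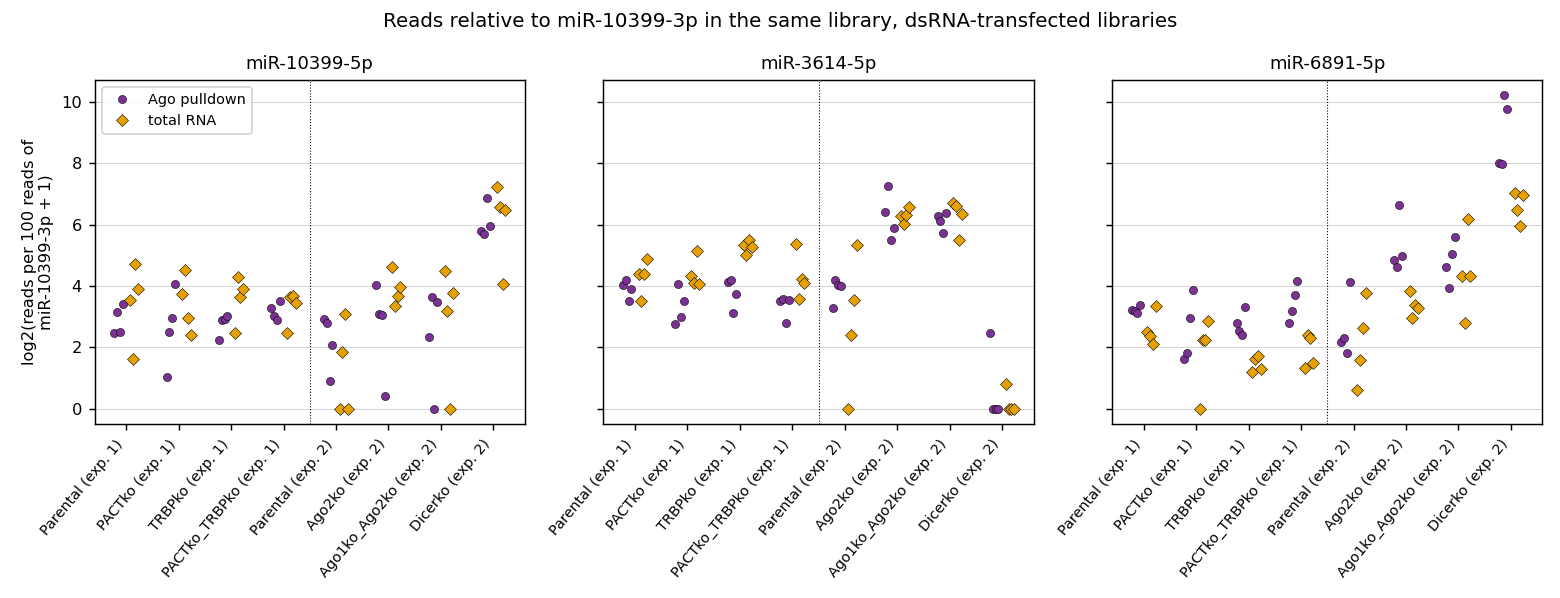
Reads of 3 members per 100 reads of miR-10399-3p in the same library, as log2(value + 1), in the dsRNA-transfected libraries of each line; circles are Ago pulldown and diamonds total RNA, and the dotted line separates the experiments. In the Dicerko pulldown miR-6891-5p lies highest of the 3 and miR-3614-5p lowest, and in the Ago knock-out lines miR-3614-5p lies above Parental. The same ratio was not counted over other miRNAs.

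The miRNAs whose levels were most like those of the members were ranked by Pearson correlation of log2(normalised count + 1) over the 24 pulldown libraries of experiment 1, among 985 miRNAs. This is a description over libraries that share mock and dsRNA groups and 1 scaling. Between members r was 0.92 to 0.98. The members were chosen with their rise under dsRNA known, so a high r between them was set in advance and is not read as a result. Outside them the closest for each of the 4 was miR-27b-3p (r 0.91 to 0.96), which ran from 1033 to 1733 with mock and from 2514 to 5467 with dsRNA. miR-4658 was among the 3 closest for all 4 members (r 0.84 to 0.91), at 0 to 0.713 with mock and 2.25 to 41.4 with dsRNA. The others were miR-106b-3p for miR-10399-3p (r = 0.86), miR-7705 for miR-10399-5p (r = 0.89), miR-296-3p for miR-3614-5p (r = 0.85) and miR-449c-5p for miR-6891-5p (r = 0.88).

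A list of 132 genes known as interferon-induced was searched for other miRNA genes within them; 130 were matched, and 6 miRNA genes were found in all. Besides the 3 hairpins above these were MIR5193 in UBA7, MIR7703 in PSME2 and MIR10393 in B2M, the light chain of class I molecules such as HLA-B. miR-5193 had 0 reads with mock, and 32 and 79 with dsRNA in the pulldown of experiments 1 and 2, with 0 in total RNA. miR-10393-5p had 0 reads with mock. With dsRNA it had 42 and 12 in total RNA of experiments 1 and 2, and 3 and 0 in the pulldown. miR-10393-3p had 0 with mock, 13 and 8 with dsRNA in total RNA, and 9 and 1 in the pulldown. miR-7703 was present without dsRNA, with 114 reads with mock and 196 with dsRNA in the pulldown of experiment 1, from 8 and 16 libraries. It had 13 and 22 in total RNA of experiment 1. In experiment 2 it had 17 and 81 in the pulldown and 13 and 36 in total RNA. Each of these read counts is small and comes from libraries of unequal depth, so no level is set against the members.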

How the data were processed

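The tables deposited by the authors hold 1 signal per mature miRNA and library, a normalised count. STAR and the build GRCh38 are named per the submitters' processing notes; the counter and the scaling software are not given in the sources used here. All 79892 values above 0 were whole multiples of 1 step per library (100%, tolerance 0.01 of a read), which gave back the reads. Of 2883 deposited rows, 231 repeat a name at another locus; the row with most reads was kept. The table named for experiment 3 is identical to that of experiment 2, so its 24 libraries were not analysed.

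The members, lists and tests were chosen with earlier results of these data known. The named miRNAs are the members and, for each, the 3 others with the highest correlation. Tests were limma 3.58.1 in R 4.3.3 (trend, robust; arm ratios not robust) on log2(value + 1), on dsRNA libraries only, for miRNAs with at least 10 reads in at least 4 libraries of the fit, with Benjamini-Hochberg adjustment over all tested and a threshold of 0.05. Fold changes of low miRNAs are understated on this scale. edgeR 4.0.16 on the recovered reads (quasi-likelihood, TMM) was added as an alternative after the unit was seen. Fits of dsGFPd against dsGFPc, and of PACTko or Ago1ko_Ago2ko against Parental, were tested on simulated data without Dicerko libraries. The Dicerko comparisons, pulldown against total RNA and the arm ratios were not simulated. Other alternatives were 2 scalings (same sum, quantile), pseudocounts of 0.1 and 10 (0.5 and 10 for arm ratios), no filter, a replicate block, an interaction with mock, fits of 2 lines, fits without Dicerko, and leaving out each library. Errors are SD over libraries. Limits from reads cover counting error only.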

Additional observations from a re-analysis of the deposited data

How the results depend on the processing

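Counts of members called are given here. dsGFPd against dsGFPc in total RNA of experiment 1 went from 0 to 1 with the replicate block (miR-10399-3p, 0.75, limma adjusted p = 0.0156). Arm ratios called in experiment 1 went from 0 to 1 with quantile normalization or a pseudocount of 10 (miR-10399) or with no filter (miR-6891, whose 3p arm had 34 reads in the dsRNA pulldown). For Ago2ko the pulldown count of 1 became 0 as an interaction with mock and 2 in a fit of only the 2 lines or without Dicerko; the total RNA count of 1 became 0 with a pseudocount of 0.1, no filter, the replicate block, the interaction or edgeR, and 2 in a fit of only the 2 lines or without Dicerko. For Ago1ko_Ago2ko the pulldown count of 0 became 1 with either scaling and 2 with only the 2 lines or without Dicerko; the total RNA count of 1 became 0 with a pseudocount of 0.1, no filter or the interaction, and 2 with either scaling, the replicate block or without Dicerko. The Dicerko pulldown count of 3 became 1 as an interaction. In total RNA of Dicerko miR-10399-3p also lost its call as an interaction (0.449, limma adjusted p = 0.892). The interaction brings in the mock libraries that chose the members, so nothing is read from it. The cause was not tested.

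Leaving out a library gave 0 to 1 for dsGFPd against dsGFPc (total RNA) and for TRBPko (total RNA) and the arm ratio of experiment 1, 2 to 3 for pulldown against total RNA of experiment 1 (miR-6891-5p counted), 0 to 2 for Ago2ko in either fraction, 0 to 3 for Ago1ko_Ago2ko in total RNA and 3 to 4 for Dicerko in either fraction. Over 1841 refits of 70 results for single members, 55 lost and 42 gained a call, and 110 changed sign, none of which was called in either fit. Over the alternatives other than leaving out a library, the count of all miRNAs called ran from 32 to 473 for Dicerko in the pulldown and 79 to 350 in total RNA, 0 to 163 and 0 to 92 for Ago2ko, 0 to 36 and 0 to 228 for Ago1ko_Ago2ko, 0 to 37 and 0 to 68 for TRBPko, 1 to 14 and 0 to 50 for PACTko_TRBPko, and 4 to 14 for dsGFPd in total RNA of experiment 1. Correlations of replicate differences between groups ran from -0.04 to 0.25 (median 0.09) and -0.05 to 0.22 (0.04) in pulldown and total RNA of experiment 1, and from -0.01 to 0.60 (0.20) and -0.08 to 0.30 (0.04) in experiment 2. Since not every pair was over 0.1, the numbers were not taken to pair the libraries. In the pulldown of experiment 2, though, summed normalised counts were higher in replicate 2 than in replicate 1 for every group outside Dicerko. With dsGFPd they were 597710 and 918635 in Parental, and 826656 and 1394929 in Ago2ko. So the main fits there may leave out a replicate effect, and counts that changed with the replicate block are given above.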
